A study of Homo sapiens with 9 samples.

Results

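The open chromatin of HEK293T cells lacking IGF2BP2 was compared directly with that of HEK293T cells lacking IGF2BP3. The members are all peaks of both deposited lists, 60262 for the IGF2BP2 knockout and 44041 for the IGF2BP3 knockout, which together make 104303 of the 194414 peaks in the 4 lists of the series. ATAC-seq reports DNA that the Tn5 transposase can reach. HEK293T is an established human embryonic kidney line, and none of the groups received any further treatment. Each knockout is 1 clone grown from a single sorted cell after transient transfection with a plasmid carrying 3 guides against the gene. The control was transfected in parallel with a guide that targets no mammalian gene, and whether it is also 1 clone is not given. Each of these 3 groups had 2 libraries, from batches 2 and 3, but 1 peak list. No spread between libraries could therefore be measured and no difference below was tested, and clone and genotype cannot be told apart. Intervals are 95% Wilson intervals over peaks or genes and cover counting error only.

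IGF2BP2 and IGF2BP3 belong to a family of oncofetal RNA-binding proteins that bind messenger RNAs, many of them carrying N6-methyladenosine, and influence their stability and translation. They act mainly in the cytoplasm and are not known as chromatin factors. Open sites fall broadly into promoters at gene starts, which tend to be wide, rich in CpG and shared between cell types, and distal sites such as enhancers, which are narrower and vary more. A peak shows that a site passed the caller's threshold, not how strongly it was open, and the read depth of the lists is unknown.

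Peaks absent from the other list were numerous and narrow. Of the IGF2BP2 knockout peaks, 21645 (35.9%) shared no base with an IGF2BP3 knockout peak, and 64.08% (63.7 to 64.46) did. Of the IGF2BP3 knockout peaks, 5601 (12.7%) had no IGF2BP2 knockout peak, and 87.28% (86.97 to 87.59) did. The median width was 496 bp for peaks in the IGF2BP2 knockout list alone against 776 bp for its shared peaks. The corresponding medians were 503 bp and 755 bp in the IGF2BP3 knockout. Few of these were near misses, since 20943 and 5201 of them had the nearest peak of the other list 1 kb or more away. List length bears on these shares: when only the 44041 widest peaks of the IGF2BP2 knockout were kept, 75.38% of them and 75.27% of the IGF2BP3 knockout peaks were shared.

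The share of absent peaks fell with width on both sides, here over 10 equal bins of each list. It was 74.95% in the narrowest bin of the IGF2BP2 knockout list, 221 to 371 bp, and 2.893% in the widest, from 1249 bp up. In the IGF2BP3 knockout it went from 30.57% in the narrowest bin to 0.7268% in the widest. At like widths the lists still differed. Of peaks 500 to 600 bp wide, 44.72% were absent from the other list in the IGF2BP2 knockout and 17.06% in the IGF2BP3 knockout.

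**Figure D1:**
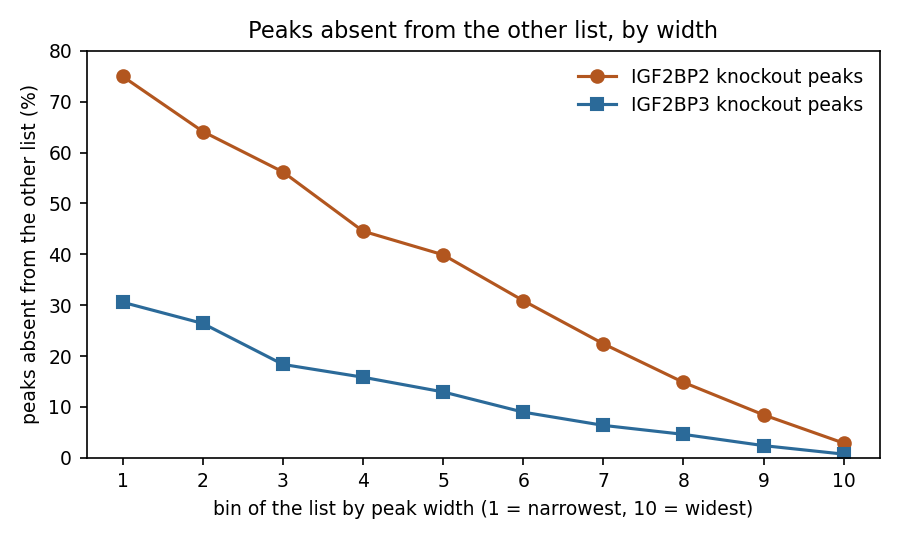
Share of peaks (vertical axis, %) absent from the other knockout's list, in 10 equal bins of each list ranked by width (horizontal axis, 1 is narrowest). Both lines fall, from 74.95% to 2.893% for the IGF2BP2 knockout and from 30.57% to 0.7268% for the IGF2BP3 knockout.

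The position relative to genes divided the peaks as well. Within 1 kb of the start of a protein-coding gene, 5.221% of IGF2BP2 knockout peaks and 3.538% of IGF2BP3 knockout peaks were absent from the other list. Farther than 100 kb from any start, 50.3% and 20.02% were absent. The control list held 22.9% (22.34 to 23.46) of the peaks in the IGF2BP2 knockout list alone and 19.37% (18.36 to 20.43) of those in the IGF2BP3 knockout list alone, against 80.53% of the shared peaks of either list. Over all one-list peaks the IGF2BP2 knockout side thus resembled the control slightly more. With equal numbers of widest peaks the order was the opposite, 27.28% for the IGF2BP2 knockout and 36.29% for the IGF2BP3 knockout. At gene starts the IGF2BP3 knockout side was nearer to the control with the full lists too, 48.37% against 37.02%.

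The widest one-list peaks lay in different kinds of places. Of peaks with no peak of the other list within 1 kb, the widest of the IGF2BP2 knockout measured 2156 bp and lay 705.0 kb from the nearest protein-coding gene, C4orf33. The next lay over the body of NCL, which encodes the nucleolar protein nucleolin (2149 bp). ARSA, the lysosomal arylsulfatase A, followed at 2026 bp, and its peak was the only one of the first 10 within 1 kb of a gene start. A 1996 bp peak stood within NFIA, a transcription factor gene of glial and kidney tract development. The remaining 6 of the first 10 were nearest to LOC124901482, MANEA, CEBPB, FAT4, NKAIN2 and MMADHC, from 1973 to 1836 bp wide. Of the 10, the control held those near C4orf33, NCL, ARSA, FAT4 and MMADHC.

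In the IGF2BP3 knockout the first 4 of such peaks all lay over gene starts. They belonged to FAM53B (2209 bp), a gene linked to Wnt signalling, RIMBP2 (2125 bp), a synaptic active zone protein, STAT5B (1820 bp), a signal transducer of cytokine and growth hormone receptors, and LOC102724428 (1733 bp). The control held 3 of these 4, all but RIMBP2. The peaks nearest to STARD3, MINDY4B, ZNF32, CPA6, KCTD8 and OR4F16 completed the first 10, at 1671 to 1527 bp, and lay 5.85 kb or more from a start.

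Gene starts were mostly shared. Of 20037 protein-coding genes, 12803 had a peak within 1 kb of the start in both lists. A start peak in the IGF2BP2 knockout list alone was found for 491 genes (2.45%), and in the IGF2BP3 knockout list alone for 341 genes (1.7%). For the 4195 genes without a start in the RefSeq promoter table, either end of the gene counted. The order of these counts depends on list length: with equal numbers of widest peaks they were 287 and 605. The control held a start peak for 36.66% (32.52 to 41.01) of the 491 genes and for 47.21% (41.98 to 52.51) of the 341 genes.

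By width of the peak, the IGF2BP2 knockout side was led by ATP8B2, a phospholipid flippase (2269 bp), VCAN, the matrix proteoglycan versican (2165 bp), and MAMLD1 (2164 bp). The peaks of these 3 genes, and that of WSB2 (1407 bp), touched an IGF2BP3 knockout peak that ended outside the 1 kb window, so only the window separates them. PAQR6 (1606 bp), RBMS2 (1468 bp), an RNA-binding protein, the neighbours C2 and EHMT2, which share 1 peak of 1445 bp, ATP2C1 (1425 bp), the Golgi calcium pump, and NTMT2 (1410 bp) had no IGF2BP3 knockout peak within 3 kb. C2 encodes a complement component and EHMT2 the histone H3 lysine methyltransferase G9a. Apart from PAQR6, these 6 genes had a narrower start peak in the control, from 625 bp at RBMS2 to 1098 bp at NTMT2.

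The IGF2BP3 knockout side was led by FAM53B and RIMBP2, then NSD1, a histone H3 lysine 36 methyltransferase (1879 bp), LIMD2 (1851 bp) and STAT5B. LORICRIN (1778 bp), LOC102724428, FOXP1 (1712 bp), SNU13 (1637 bp) and RASGRP2 (1596 bp) followed. The peaks of NSD1, LORICRIN, FOXP1, SNU13 and RASGRP2 touched an IGF2BP2 knockout peak. At FAM53B the nearest IGF2BP2 knockout peak was 46.45 kb away, and the control had a start peak of 1362 bp. At STAT5B the nearest was 8.366 kb away and the control peak measured 1312 bp. RIMBP2 had no IGF2BP2 knockout peak within 31.16 kb and no control peak.

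The sequence of these promoters differed between the sides, and 6 of them show the contrast. They were chosen after their values were seen. Each is the 250 bases before the gene start from RefSeq, build GRCh38.p14, 5′ to 3′ on the gene's strand, with every CpG in capitals. The first 3 lay under a peak of the IGF2BP3 knockout alone: FAM53B (chr10:124744379-124744628, minus strand), STAT5B (chr17:42276392-42276641, minus strand) and CD44 (chr11:35138921-35139170, plus strand).
FAM53B: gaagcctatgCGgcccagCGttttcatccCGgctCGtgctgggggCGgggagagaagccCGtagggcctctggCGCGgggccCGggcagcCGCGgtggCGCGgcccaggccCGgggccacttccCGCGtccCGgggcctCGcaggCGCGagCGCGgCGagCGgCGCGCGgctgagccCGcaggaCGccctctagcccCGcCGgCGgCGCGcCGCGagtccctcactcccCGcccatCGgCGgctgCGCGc
STAT5B: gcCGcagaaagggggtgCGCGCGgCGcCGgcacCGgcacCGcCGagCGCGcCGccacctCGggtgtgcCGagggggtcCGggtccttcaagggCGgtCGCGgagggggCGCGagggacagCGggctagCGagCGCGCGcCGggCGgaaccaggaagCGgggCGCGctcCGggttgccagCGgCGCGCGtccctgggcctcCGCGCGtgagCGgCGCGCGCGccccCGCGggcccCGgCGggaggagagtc
CD44: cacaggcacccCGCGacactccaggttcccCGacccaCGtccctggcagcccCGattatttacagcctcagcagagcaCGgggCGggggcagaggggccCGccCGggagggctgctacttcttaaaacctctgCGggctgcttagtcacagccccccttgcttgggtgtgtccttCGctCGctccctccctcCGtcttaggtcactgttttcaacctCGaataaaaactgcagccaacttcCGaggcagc
The other 3 lay under a peak of the IGF2BP2 knockout alone: RBMS2 (chr12:56521570-56521819, plus strand), IFI44L (chr1:78620198-78620447, plus strand) and TREX1 (chr3:48465580-48465829, plus strand).
RBMS2: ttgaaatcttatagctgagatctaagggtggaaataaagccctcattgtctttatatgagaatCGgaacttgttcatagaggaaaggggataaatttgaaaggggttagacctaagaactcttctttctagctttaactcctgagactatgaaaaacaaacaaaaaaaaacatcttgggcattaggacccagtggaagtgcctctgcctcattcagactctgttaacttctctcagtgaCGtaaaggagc
IFI44L: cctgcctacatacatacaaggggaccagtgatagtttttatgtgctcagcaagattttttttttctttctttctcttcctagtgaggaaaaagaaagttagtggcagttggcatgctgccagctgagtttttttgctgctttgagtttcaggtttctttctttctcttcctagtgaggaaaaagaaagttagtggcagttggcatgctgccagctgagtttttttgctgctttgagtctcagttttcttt
TREX1: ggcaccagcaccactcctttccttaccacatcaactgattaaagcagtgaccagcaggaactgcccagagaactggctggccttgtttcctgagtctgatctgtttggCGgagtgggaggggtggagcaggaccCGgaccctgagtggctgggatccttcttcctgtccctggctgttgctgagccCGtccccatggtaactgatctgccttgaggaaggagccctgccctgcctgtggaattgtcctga
FAM53B and STAT5B hold 41 and 47 CpG in these 250 bases, at 80.4% and 82.0% GC. CD44, the hyaluronan receptor, holds 15 CpG at 62.4% GC. RBMS2 holds 2 at 39.2%, IFI44L none at 40.4% and TREX1 3 at 58.0%.

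The same contrast held over the classes. Of 15812 promoters of 300 bases (250 before to 50 after the start), 9837 touched a peak in both lists, with a median of 66.33% GC and 28 CpG. The 314 touched in the IGF2BP2 knockout list alone had a median of 55.17% GC and 10 CpG, and 29.9% of them held at least 20 CpG. The 276 touched in the IGF2BP3 knockout list alone had 69.33% GC and 28 CpG, and 63.4% held at least 20. The IGF2BP2 knockout side lay near the 5385 promoters with no peak in either list (53.0% GC and 5 CpG). By these medians the IGF2BP3 knockout side lay near the promoters open in both, of which 78.6% held at least 20 CpG.

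Read across GC content, the sides crossed. Of promoters under 40% GC with a peak in either list, 36.2% (26.6 to 47.2) had it in the IGF2BP2 knockout alone and 6.25% (2.7 to 13.8) in the IGF2BP3 knockout alone. Between 60 and 70% GC the shares were 1.58% and 1.44%. From 80% GC up they were 3.88% (2.47 to 6.05) and 11.2% (8.65 to 14.4). Equal numbers of widest peaks left the direction at both ends as it was, with 25.0% against 14.7% under 40% GC and 2.62% against 13.5% from 80% up. In between, the point of crossing moved with list length. At 40 to 50% GC the shares went from 16.1% and 6.02% to 10.6% and 10.4%, and at 50 to 60% from 3.99% and 2.29% to 3.02% and 4.33%, which turned the order. Where both lists had a peak, the median log2 ratio of the widths, IGF2BP2 over IGF2BP3 knockout, was 0.07 at 40 to 50% GC and -0.01 at 70 to 80%, small beside the quartiles over promoters (-0.07 to 0.21 and -0.15 to 0.12).

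**Figure D2:**
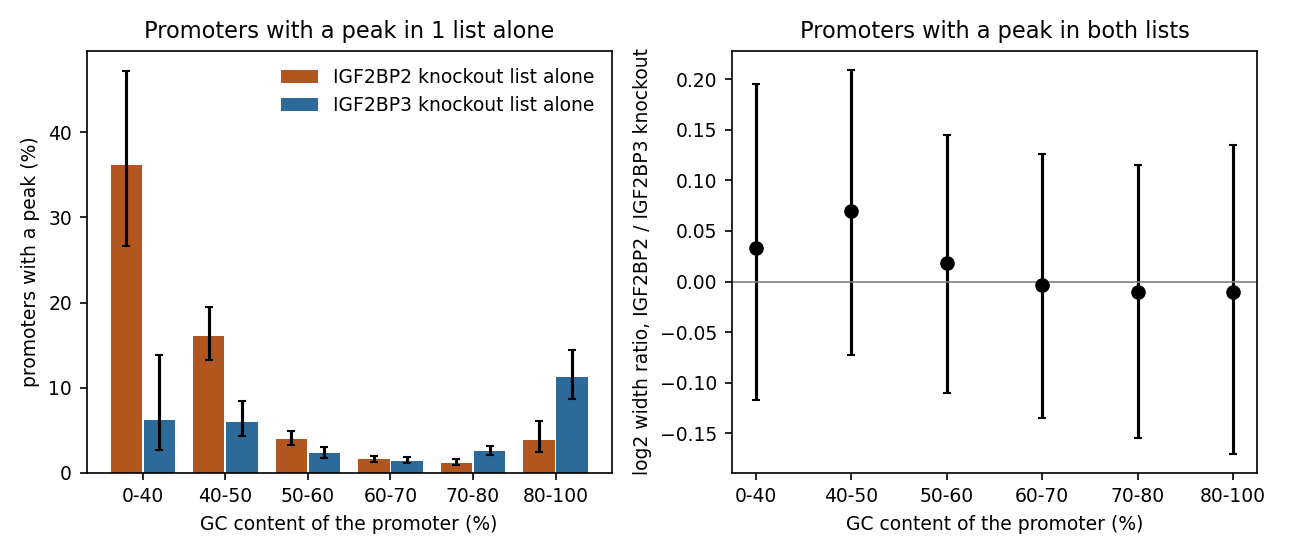
Left, share of promoters with a peak in either list (vertical axis, %) whose peak is in 1 list alone, by GC content of the promoter (horizontal axis, %), with 95% Wilson intervals. Right, median and quartiles of the log2 width ratio at promoters with a peak in both lists; on the left the IGF2BP2 knockout bar is higher under 40% GC (36.2% against 6.25%) and the IGF2BP3 knockout bar from 80% up (11.2% against 3.88%).

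Short motifs, searched as letters on both strands of the 300 bases, followed base composition in part. The GC box core GGGCGG was in 65.6% of the IGF2BP3 knockout promoters and 40.8% of the IGF2BP2 knockout promoters, against 58.5% of all promoters. The TATA box letters TATAAA were in 7.25% and 15.0%, against 9.64% of all. The RBMS2 sequence shown above holds them only on the strand opposite to the gene. CCAAT was in 22.1% and 30.3%, below the 36.3% of all promoters on both sides. CCGGAAG was in 7.25% and 6.05%, against 14.2% of all promoters and 20.4% of those with a peak in both lists. These matches are letters in a window and not binding sites.

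Innate immune genes, the subject named in the title of the series, had a start peak in 1 list alone about as rarely as protein-coding genes in general. Cells sense foreign RNA and DNA, signal through NF-kappaB, interferon factors and STATs, and then switch on effector genes. Among 22 RNA sensors and adaptors, 15 had a start peak in both lists, and 1 in the IGF2BP3 knockout alone: OAS3, which makes the activator of RNase L. Its peak measured 602 bp, and the nearest IGF2BP2 knockout peak was 92.18 kb away. Among 17 DNA sensors and adaptors, 8 had it in both lists. TREX1, the exonuclease that clears cytosolic DNA, had a 695 bp start peak in the IGF2BP2 knockout alone. Neither OAS3 nor TREX1 had a start peak in the control. CGAS and STING1, the main DNA sensor and its adaptor, had no peak in either list.

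Of 29 interferon receptors, JAKs, STATs and IRFs, 23 had a start peak in both lists, and STAT5B and IRF7 had one in the IGF2BP3 knockout alone. At IRF7, a master regulator of type I interferon genes, the peak measured 378 bp, against 626 bp in the control. All 22 NF-kappaB pathway genes with a peak had it in both lists. Of 28 interferon-stimulated effectors, 17 had it in both, and IFI44L in the IGF2BP2 knockout alone, with 1245 bp against 1102 bp in the control. MX1, the antiviral GTPase, was open in both lists with 975 bp in the IGF2BP2 knockout, 482 bp in the IGF2BP3 knockout and 840 bp in the control. It was picked after its values were seen. Of 16 effector start peaks that paired one to one, 7 were wider in the IGF2BP2 knockout and 9 in the IGF2BP3 knockout. In total, of 119 listed immune genes, 2 (1.68%) had a start peak in the IGF2BP2 knockout alone and 3 (2.52%) in the IGF2BP3 knockout alone, against 2.45% and 1.7% of all genes.

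Each of the other lists had 0 to 3 one-list starts on a side, beside 2.45% and 1.7% of all genes. In the IGF2BP3 knockout alone were the kidney regulators OSR1 (681 bp) and EYA1 (662 bp), and the neural genes NRXN3 (725 bp), a presynaptic adhesion protein, and TUBB3 (919 bp), neuronal tubulin. HOXC8 (490 bp) and the Wnt ligand WNT5A (657 bp) were there too, as was CD44 (1159 bp), 55.95 kb from the nearest IGF2BP2 knockout peak. For WNT5A the nearest IGF2BP2 knockout peak was only 0.543 kb away. The control held TUBB3 and WNT5A of these 7. In the IGF2BP2 knockout alone were NEUROD1 (287 bp), a neuronal transcription factor, IGFBP5 (366 bp) and IGFBP1 (480 bp), which bind insulin-like growth factors, COL1A2 (345 bp), a collagen chain, and HOXA9 (523 bp). For IGFBP5 the nearest IGF2BP3 knockout peak was 0.675 kb away. NEUROD1, IGFBP5, IGFBP1 and COL1A2 were no longer in this class when equal numbers of widest peaks were kept. The control held NEUROD1 and IGFBP5 of these 5. All 19 genes of the m6A machinery had a start peak in both lists.

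Among 12 markers of HEK293T cells, 8 had a start peak in the IGF2BP2 knockout, 9 in the IGF2BP3 knockout and 8 in the control. The difference between the knockouts was EYA1. Of all protein-coding genes, 66.35% had a start peak in the IGF2BP2 knockout and 65.6% in the IGF2BP3 knockout. The marker counts lie near these shares and so do not check the cell type. PAX2, SOX11 and HOXA11 had none in any of these lists. Of 15 markers of other cell types the same 5 had one in both knockouts, the muscle genes TNNT2 and MYOD1, the lung gene SFTPC, the leukocyte gene SPI1 and the hepatocyte gene APOA1. The other 10, among them PTPRC, ALB and PECAM1, had none in either knockout.

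Shared peaks had nearly the same width. Over 37764 one-to-one pairs, the median log2 ratio of IGF2BP2 over IGF2BP3 knockout was 0.03 (quartiles -0.15 and 0.25), and 55.36% of pairs were wider in the IGF2BP2 knockout. The excess was distal: over 10 kb from a gene start the median was 0.05, and within 1 kb of one it was 0.00. A width at least 2-fold greater was found for 705 pairs (1.87%) in the IGF2BP2 knockout and 420 (1.11%) in the IGF2BP3 knockout. Within 1 kb of a start the order turned, with 49 pairs against 80, while over 10 kb from one there were 574 against 282.

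The extremes followed that division only in part. The highest ratio belonged to a peak 31.2 kb from NEB, the giant muscle protein nebulin, which measured 1492 bp where IGF2BP2 was knocked out and 314 bp where IGF2BP3 was. The next were nearest to STOX2 (1588 and 358 bp), GORAB (1355 and 309 bp), ZWINT (1414 and 339 bp) and RASGEF1B (1053 and 258 bp), all over 30 kb from a start. The lowest ratio belonged to a peak within PTPRN2, a secretory vesicle protein, with 315 bp against 1777 bp, followed by 1 within the ion channel gene TRPC6 (288 and 1295 bp). They lay 155 and 105 kb from a start. The next 3 covered gene starts: FGF9, a kidney progenitor growth factor (315 and 1391 bp), HIC2 (402 and 1697 bp) and SNAP25, a synaptic fusion protein (565 and 2281 bp). The control measured 1445 bp at HIC2 and 1554 bp at SNAP25, nearer to the IGF2BP3 knockout, but 1490 bp at STOX2, nearer to the IGF2BP2 knockout. At FGF9 the control had peaks of 500 and 732 bp. The IGF2BP2 knockout peak overlapped only the narrower of them, and the IGF2BP3 knockout peak reached over the wider one.

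The median width ratio of start peaks was also taken for each list of genes, although the lists are small. Among HOX genes, which set position along the body axis and share some start peaks, 13 of 18 distinct one-to-one start peaks were wider in the IGF2BP3 knockout, with a median log2 ratio of -0.18 (quartiles -0.29 and 0.02). Among WNT, NOTCH and TGF-beta genes it was 23 of 33 (median -0.05, quartiles -0.32 and 0.03), and among IGF axis and oncofetal genes 10 of 16 (median -0.14). Over all protein-coding genes it was 5402 of 10921 (median 0.00, quartiles -0.14 and 0.13). Among interferon receptors, JAKs, STATs and IRFs it was 14 of 22 (median -0.09, quartiles -0.25 and 0.04). In the IGF2BP2 knockout, 15 of 25 were wider among cell adhesion genes (median 0.03) and 12 of 21 among kidney developmental regulators (median 0.02). Of all genes 5482 of 10921 were wider there. Neural lineage genes were even, with 12 wider on each side (median -0.01). For RNA sensors, NF-kappaB genes, m6A genes, interferon-stimulated effectors and DNA sensors the medians were -0.01, -0.02, -0.03, -0.07 and 0.05. Of the lists named here, only the HOX genes had a median outside the quartiles over all protein-coding genes.

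Single genes picked after their values were seen show the range. AXIN2, a Wnt target and feedback inhibitor, measured 691 bp in the IGF2BP2 knockout, 2182 bp in the IGF2BP3 knockout and 2197 bp in the control. LHX1, a kidney transcription factor, measured 538, 1743 and 1768 bp in the same order. The HOXB7 and HOXB8 peak measured 677, 1232 and 1412 bp. At these 3 places the IGF2BP2 knockout was the one narrower than the control. LEF1, a Wnt transcription factor, measured 562, 1618 and 635 bp, and the Notch target HES1 measured 566, 1252 and 700 bp, so there the IGF2BP3 knockout was the wider one. HOXB4 (1535, 1004 and 1434 bp) and INSR, the insulin receptor (1507, 953 and 1483 bp), were narrower in the IGF2BP3 knockout.

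**Figure D3:**
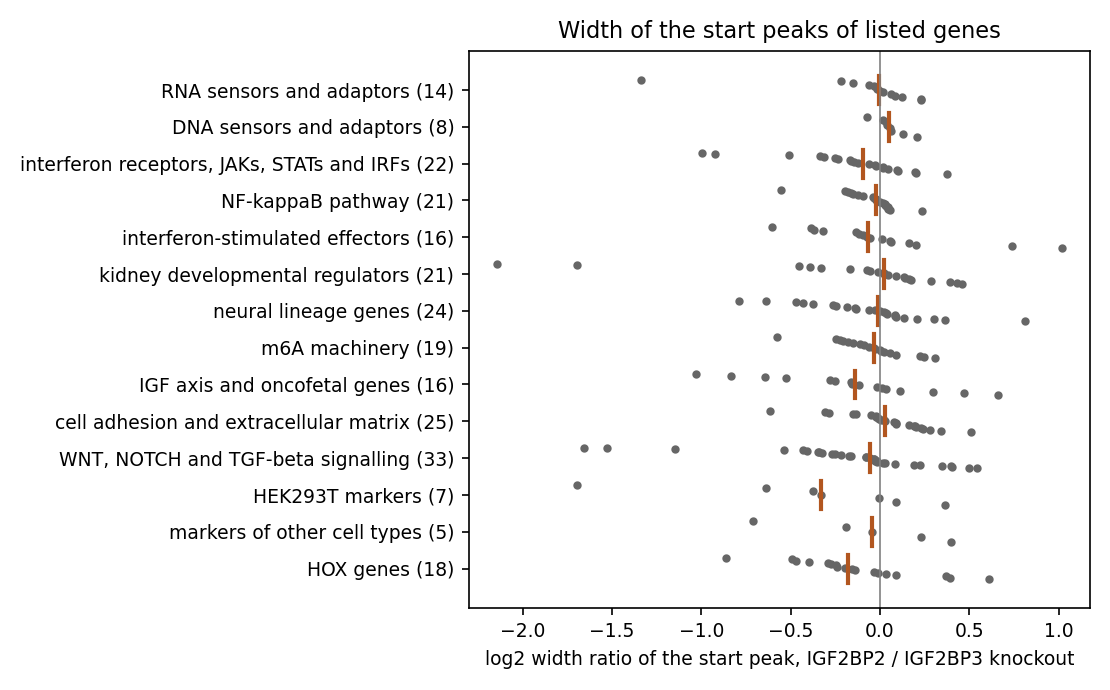
Each point is 1 distinct start peak of a listed gene that pairs with exactly 1 peak of the other list, placed at its log2 width ratio, IGF2BP2 over IGF2BP3 knockout (horizontal axis); gene lists are on the vertical axis with their number of peaks, and coloured lines are medians. The HOX genes have the median farthest from 0 of the lists with over 10 peaks (-0.18).

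Broad IGF2BP3 knockout peaks also covered places where the IGF2BP2 knockout had several. This was so for 348 IGF2BP3 knockout peaks, of which 48.9% touched a promoter, against 20.7% of the whole list. The reverse held for 171 IGF2BP2 knockout peaks, of which 38.6% touched a promoter, against 15.2% of the whole list. Their median widths were 1773 and 1656 bp, against 713 and 651 bp in the whole lists, and shares at equal width were not compared. IGF2BP2 itself was a place where a broad IGF2BP3 knockout peak covered several. Its start (chromosome 3, minus strand) carried peaks of 372 and 745 bp in the IGF2BP2 knockout, 1 peak of 1773 bp in the IGF2BP3 knockout and peaks of 898 and 636 bp in the control. IGF2BP3, on chromosome 7, had no start peak in either knockout and one of 564 bp in the control. IGF2BP1, the third family member, measured 907 bp in the IGF2BP2 knockout, 1850 bp in the IGF2BP3 knockout, with a second peak of 519 bp beside it, and 2434 bp in the control. A peak list does not show whether a gene was disrupted, so these values do not check the knockouts.

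Peaks were also counted over gene bodies and 5 kb around them. NKAIN2, a neuronal sodium pump partner, held 39 peaks in the IGF2BP2 knockout and 12 in the IGF2BP3 knockout, 27 of them in the former alone and none in the latter alone. The glycosyltransferase gene GALNTL6 held 37 and 16, the axon guidance receptor gene ROBO1 34 and 13, the transcription factor gene FOXP1 40 and 21, and RANBP2 39 and 19. The control held 9, 10, 17, 17 and 22 at these 5 genes. At all 5 its number was closer to that of the IGF2BP3 knockout. These genes were ranked by their excess in the IGF2BP2 knockout, and the control list is the shortest, with 39194 peaks. Its closeness to the IGF2BP3 knockout here therefore does not show which side resembles it.

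In the other direction the counts were small. DPP6, a potassium channel subunit, held 2 peaks in the IGF2BP2 knockout and 10 in the IGF2BP3 knockout, with 2 in the control. PTPRN2 held 13 and 20, CDH4, a cadherin, 5 and 11, the neurexin family gene CNTNAP2 26 and 32, and IL1RAPL2, a synaptic receptor, 14 and 20. The control held 11, 1, 19 and 6 at PTPRN2, CDH4, CNTNAP2 and IL1RAPL2. At DPP6 and each of these genes its number was closer to that of the IGF2BP2 knockout, again at genes ranked by the difference. Among listed groups, 129 of 274 IGF2BP2 knockout peaks at neural genes and 36 of 180 IGF2BP3 knockout peaks there were in 1 list alone. At cell adhesion genes these were 43 of 113 and 4 of 73. Over all protein-coding genes they were 10993 of 36250 and 2878 of 27957, so the neural share was higher on both sides. FTO, an m6A eraser, held 10 peaks in the IGF2BP2 knockout, 1 in the IGF2BP3 knockout and 5 in the control.

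Along chromosomes the lists departed from each other in large stretches. The share of a list's peaks on a chromosome was at least 1.2 times higher in the IGF2BP2 knockout for 1 of 23 chromosomes (4.35%), chromosome 2, and in the IGF2BP3 knockout for 3 of 23 (13.0%), chromosomes 10, 11 and 21. Chromosome 2 held 7.803% of the IGF2BP2 knockout peaks, 5.59% of the IGF2BP3 knockout peaks and 7.182% of the control peaks. Chromosome 11 held 3.389%, 4.852% and 4.771%. For chromosome 2 the IGF2BP3 knockout was the list farther from the control (0.778 times its share), and for chromosome 11 it was the IGF2BP2 knockout (0.71 times). Chromosome 10 (ratio 0.812) and chromosome 21 (0.733) followed. Chromosome 17, at 0.853, and chromosome 6, at 1.15, lay just inside the threshold. Chromosome 13 had 1.6 and 1.67 times the control's share, and so did not separate the knockouts.

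On the chromosomes past 1.2 times, peaks missing from the other list and the widths of shared peaks moved the same way. On chromosome 2, 50.66% of IGF2BP2 knockout peaks had no IGF2BP3 knockout peak and 5.89% of IGF2BP3 knockout peaks had no IGF2BP2 knockout peak. On chromosome 11 these were 16.41% and 20.45%. The median log2 width ratio of shared peaks was highest of 23 on chromosome 2 (0.11) and lowest on chromosome 11 (-0.07), -0.04 on chromosome 21 and -0.03 on chromosome 10. Elsewhere widths and shares did not always move together. Chromosome 19 had a median of 0.0936 at a ratio of shares of 0.972, and chromosome 16 had 0.105 at 1.11. Peaks near genes differed far less. With peaks within 1 kb of a gene end alone, no chromosome passed 1.2 times, and the ratio was 1.04 for chromosome 2 and 0.921 for chromosome 11. Start peaks in 1 list alone were still uneven, with 45 genes on chromosome 2 in the IGF2BP2 knockout alone and 6 in the IGF2BP3 knockout alone, and 11 and 42 on chromosome 11.

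**Figure D4:**
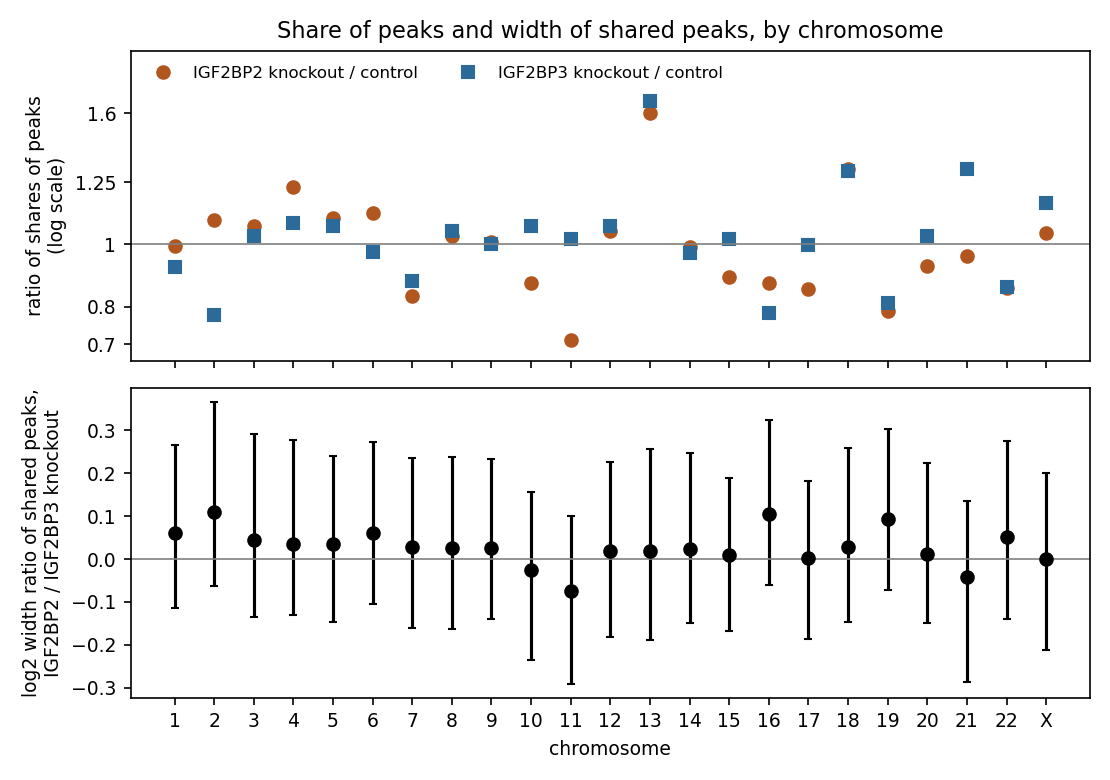
Top, each knockout's share of peaks on a chromosome divided by the control's share (log scale); bottom, median and quartiles over one-to-one pairs of the log2 width ratio, IGF2BP2 over IGF2BP3 knockout. The lists separate most on chromosome 2 (1.09 and 0.778 above, 0.11 below) and chromosome 11 (0.71 and 1.02 above, -0.07 below).

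Windows of 5 Mb, with the ratio of shares computed after adding 0.5 to each count, showed that the shift ran along whole chromosomes. On chromosome 2, 47 of 49 windows were higher in the IGF2BP2 knockout, on chromosome 11 all 26 were lower, and on chromosome 10, 25 of 27 were lower, against 296 higher of 578 in all. The highest ratio, 3.0, was at 210 to 215 Mb of chromosome 2, with 100 peaks in the IGF2BP2 knockout, 24 in the IGF2BP3 knockout and 28 in the control, a stretch that holds the receptor gene ERBB4. Next came chromosome 6 at 60 to 65 Mb (2.89), chromosome 2 at 50 to 55 Mb (2.38), chromosome 13 at 15 to 20 Mb (2.34) and chromosome 2 at 140 to 145 Mb (2.32). The lowest ratios were on chromosome 3 at 190 to 195 Mb (0.497), chromosome 11 at 130 to 135 Mb (0.498), chromosome 3 at 185 to 190 Mb (0.535), chromosome 21 at 35 to 40 Mb (0.574) and chromosome X at 155 to 160 Mb (0.575).

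**Figure D5:**
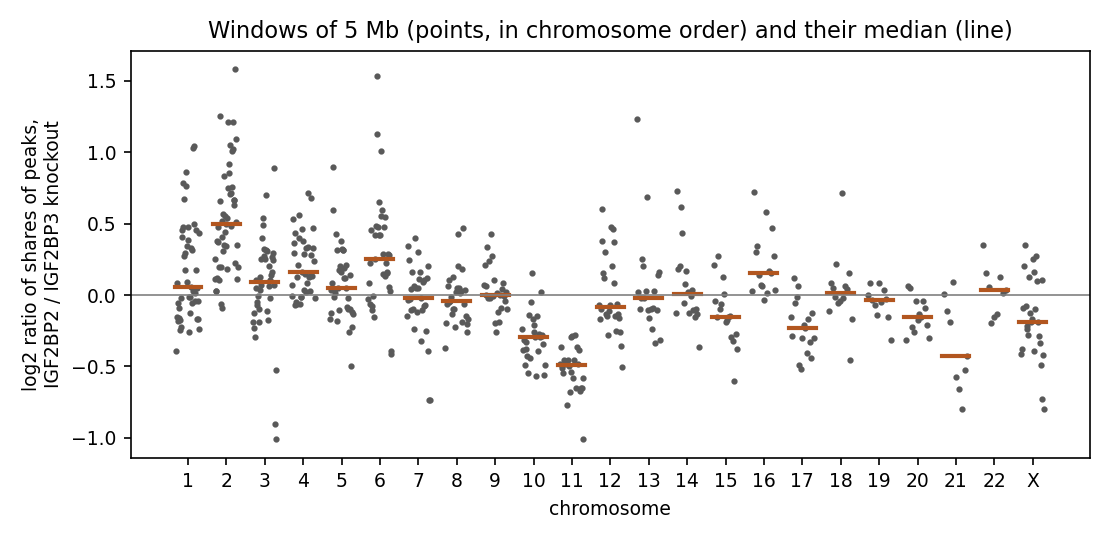
Each point is a 5 Mb window, placed in order along its chromosome (horizontal axis) at the log2 ratio of the lists' shares of peaks, IGF2BP2 over IGF2BP3 knockout (vertical axis); lines are medians. Nearly all windows of chromosome 2 lie above 0 (47 of 49), all 26 of chromosome 11 lie below it, and the last 3 of chromosome 3 drop below the rest of that chromosome.

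The low windows of chromosome 3 began near IGF2BP2. The ratio was 1.85 at 175 to 180 Mb, 1.05 at 180 to 185 Mb and 0.535 at 185 to 190 Mb, the window that holds the gene. The chromosome was split at the gene after the windows had been seen, and no other point of division was compared. In the 20 Mb on the lower-coordinate side of the gene, the IGF2BP2 knockout had 380 peaks, the IGF2BP3 knockout 224 and the control 193, a ratio of shares of 1.24. On the other side, to the end of the chromosome, the IGF2BP2 knockout had 130 peaks, the IGF2BP3 knockout 173 and the control 152, a ratio of 0.549. There only 10 IGF2BP2 knockout peaks were absent from the other list, against 56 IGF2BP3 knockout peaks. The median log2 width ratio of shared peaks changed from 0.14 (quartiles -0.04 and 0.40) over 191 pairs to -0.16 (quartiles -0.37 and -0.03) over 115 pairs. The share of the IGF2BP3 knockout was 1.03 and 1.01 times that of the control on the lower and the higher side, and that of the IGF2BP2 knockout 1.28 and 0.556 times. A cause was not tested.

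Several genes named for other reasons lie in that last stretch. LPP, an adhesion protein gene, held 2 peaks in the IGF2BP2 knockout, 8 in the IGF2BP3 knockout and 4 in the control. EIF4A2, a translation initiation helicase, had a start peak of 1527 bp in the IGF2BP3 knockout and 1094 bp in the control, and none in the IGF2BP2 knockout. PIGZ measured 481, 1927 and 1608 bp in the IGF2BP2 knockout, the IGF2BP3 knockout and the control, and HES1 lies there as well. Around IGF2BP3 on chromosome 7 the ratios of shares were 1.08 and 1.02 in the 20 Mb on its lower and higher sides. The end of chromosome 7, far from any targeted gene, also had low windows, with 0.763 at 145 to 150 Mb, 0.6 at 150 to 155 Mb and 0.602 at 155 to 160 Mb. CNTNAP2, DPP6 and PTPRN2 lie there.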

How the data were processed

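The authors deposited 1 list per group whose values are peak start and end positions (chromosome, start and end, converted here to positions counted from 1), with no score, height or depth. The submitters' processing notes name fastp 0.24.1, BWA 0.7.17, MACS2 3.0.0, bedtools and GRCh38; how the libraries of a group were combined is not given in the sources used here. Peaks with at least 1 bp in common counted as shared. One-to-one pairs are peaks that overlap 1 peak of the other list and no more. Genes, starts and sequences came from RefSeq (GRCh38.p14). Named items follow rules by rank: the 10 widest one-list peaks and gene starts per side, the 5 most extreme width pairs, gene bodies and windows, listed genes with a one-list start, and the targeted genes; others are stated as chosen after their values were seen, and some listed genes are not reported here. The members and lists were chosen with earlier results of these data known. Python 3.11.15, numpy 2.4.6, pandas 2.3.3 and scipy 1.17.1 were used, and the overlap, pairing and ratio functions were tested on simulated data. Alternatives covered the widest peaks of each list, merging within 500 bp, overlap of at least 50% of the shorter peak, a 250 bp window and peaks near gene ends. The libraries could not be compared within batches.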

Additional observations from a re-analysis of the deposited data

Results flagged for a closer look

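Chromosomes 2, 10, 11 and 21 drew attention because the knockouts lay on opposite sides of the control there and passed 1.2 times between them. None of these differences was tested, since each group has 1 list. The ratio of shares, IGF2BP2 over IGF2BP3 knockout, was 1.4 on chromosome 2, where the IGF2BP2 knockout had 1.09 times and the IGF2BP3 knockout 0.778 times the control's share. On chromosome 10 it was 0.812 (0.871 and 1.07 times the control). On chromosome 11 it was 0.698 (0.71 and 1.02 times), and on chromosome 21 it was 0.733 (0.961 and 1.31 times). On chromosome 11 the IGF2BP3 knockout lay close to the control, and on chromosome 21 the IGF2BP2 knockout did.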

How the results depend on the processing

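Keeping the 44041 widest peaks of each list moved the shared peaks to 75.38% of the IGF2BP2 knockout and 75.27% of the IGF2BP3 knockout, the one-list peaks found in the control to 27.28% and 36.29%, the median log2 width ratio to 0.0488, and the genes with a one-list start to 287 and 605. With peaks near gene ends alone, 0 chromosomes passed 1.2 times. Restricting genes to those with a start in the promoter table, an alternative added after seeing the data, gave 365 genes for the IGF2BP2 knockout and 227 for the other list. Joining peaks less than 500 bp apart and asking for 50% overlap moved none of these by more than its counting interval or 1.5 times. The 250 bp window gave 411 and 396 genes; of the 10 named genes per side it kept 6 and 6, and of the 8 and 11 listed one-list genes it kept 4 and 10. The widest peaks kept 4 and 11 of those listed genes, and genes in the promoter table alone 5 and 6. The median GC of one-list promoters, computed under 2 settings added after seeing the data, stayed between 54.33 and 56.33% for the IGF2BP2 knockout and between 67.0 and 71.67% for the IGF2BP3 knockout. No paired analysis was possible because each group has 1 list and the lists carry no replicate. Unknown depth limits every count of narrow peaks.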

Other observations

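MicroRNA hairpins near peaks showed the same imbalance of list lengths. Of 1558 hairpins, 214 lay within 1 kb of a peak in both lists, 64 (4.11%) in the IGF2BP2 knockout alone and 20 (1.28%) in the IGF2BP3 knockout alone. The control held 17 of the 64 and 10 of the 20. MIR132 and MIR212, neighbours on chromosome 17 known from neurons, lay under 1 peak of 882 bp in the IGF2BP3 knockout alone, with no control peak. MIR219A1, known from oligodendrocytes, overlapped a 1031 bp peak of the IGF2BP2 knockout that the control also held. The end of the MIR361 hairpin overlapped the edge of a 715 bp peak of the IGF2BP2 knockout alone, with no control peak. The mature RNAs from RefSeq are shown 5′ to 3′ with the seed, bases 2 to 8, in capitals, because the first 2 share theirs. They were chosen after their values were seen.
hsa-miR-132-3p: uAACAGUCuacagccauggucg
hsa-miR-212-3p: uAACAGUCuccagucacggcc
hsa-miR-219a-5p: uGAUUGUCcaaacgcaauucu
hsa-miR-361-5p: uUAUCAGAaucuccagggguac

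Uninterrupted stretches of at least 8 consecutive peaks in 1 list alone numbered 69 in the IGF2BP2 knockout and none in the IGF2BP3 knockout. One-list peaks made up 35.9% of the former list and 12.7% of the latter, which bears on how often such stretches can arise. The longest held 26 peaks, on chromosome 6 from 60635304 to 63528335, near KHDRBS2 and PTP4A1, and the control had none of the 26. Of the 69, chromosome 2 carried 20, chromosome 6 carried 12 and chromosome 1 carried 10. A stretch of 22 peaks on chromosome 2, from 193806096 to 195051833, held no protein-coding gene, and the control had 3 of its peaks. The ERBB4 region held stretches of 19 and 16 peaks.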
